A study of Mus musculus with 15 samples.

Results

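The cytosolic ribosomal protein genes of the mouse were followed in whole epididymis of Plag1 mutant and wild-type animals. They were taken as the protein-coding entries whose symbol is Rpl or Rps with a number and at most 1 letter, together with Rplp0, Rplp1, Rplp2, Rpsa and Fau. Pseudogenes, the kinases named Rps6k and the mitochondrial Mrp genes were left out. The rule found 82 of 41591 Gene IDs, 50 of the large and 32 of the small subunit. Of these, 80 had enough counts to be tested. Rpl10l and Rpl32l did not.

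RNA of 15 animals was sequenced as stranded mRNA libraries, 1 animal a library, after the opened tissue had been rinsed in saline to take out sperm. There were 5 knockouts (KO, Plag1 -/-), 5 heterozygotes (HET, Plag1 -/+) and 5 wild types (WT), all aged 7 weeks and with a strain label of Brown Swiss in every library. The labels do not say which bases of Plag1 are deleted, and they name no litter, batch or day. Libraries held 25.3 to 42 M counts in KO, 23.6 to 33.8 M in HET and 20.3 to 27.8 M in WT, and 19388 genes were tested. Plag1, the gene of a zinc finger transcription factor, averaged 8.33 ± 0.97 CPM in KO, 10.2 ± 1.38 CPM in HET and 12.7 ± 0.87 CPM in WT (SD, n = 5 each), where CPM is a gene's counts scaled to a common library size. It fell in KO against WT by 0.61 ± 0.10 on the log2 scale (SE; edgeR adjusted p = 0.00491), and reads were counted on the gene in every KO library. All 12 epididymal marker genes were detected in each genotype. Their summed levels per library were 75161 to 92440 CPM for KO, 84423 to 100142 CPM for HET and 78155 to 91232 CPM for WT. KO-738 and HET-693 were rich in ribosomal RNA, at 1.289% and 1.296% of their counts, and no other library was above 0.509%. The numbers of 3 KO and 2 HET animals are below 700, and those of all WT animals are above it. In whole tissue, fewer cells of a type and less RNA per cell cannot be told apart.

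Each cytosolic ribosome holds 1 copy of most of these proteins, arranged around ribosomal RNA in a small subunit, which reads the mRNA, and a large subunit, which forms the peptide bond. Their mRNAs are among the most abundant of any growing or secreting cell. Many of them open with an unbroken run of C and T bases, the 5′ terminal oligopyrimidine start, through which the kinase mTOR and the protein LARP1 set how much of each mRNA is translated.

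That start could be looked up for 62 of the 82 members in the RefSeq promoter table (GRCm38.p6). The windows are shown for the members that passed the threshold in KO against WT and had an entry, and for Rps6 and Rpl7a. Each window runs 5′ to 3′ from 30 bases before the annotated start to base 20 of the transcript. Capitals mark the run of at least 5 C or T that opens with C within 5 bases of the start.
Rpl35, chr2:39005112-39005161, minus strand: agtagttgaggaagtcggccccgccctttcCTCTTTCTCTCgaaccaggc
Rps2, chr17:24720033-24720082, plus strand: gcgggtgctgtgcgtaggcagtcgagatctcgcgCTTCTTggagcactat
Rps6, chr4:86857348-86857397, minus strand: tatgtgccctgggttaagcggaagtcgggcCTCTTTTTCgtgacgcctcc
Rpl7a, chr2:26910777-26910826, plus strand: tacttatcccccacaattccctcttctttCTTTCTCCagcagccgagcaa
Rpl27, chr11:101442215-101442264, plus strand: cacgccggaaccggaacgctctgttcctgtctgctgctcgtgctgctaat
Rps13, chr7:116334171-116334220, minus strand: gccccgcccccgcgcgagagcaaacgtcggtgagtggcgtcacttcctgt
Rpl10, chrX:74270786-74270835, plus strand: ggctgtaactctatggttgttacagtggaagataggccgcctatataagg
Rpl39l, chr16:10170198-10170247, plus strand: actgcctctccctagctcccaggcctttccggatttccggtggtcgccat

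Rpl35 opens exactly on its run, which is 11 bases long, and Rps6 on one of 9 bases. No run in Rpl27, Rps13, Rpl10 and Rpl39l met this rule, although a stretch of C and T ends just before the annotated start of Rpl39l. Such a run was found in 30 of 62 members (48.4%), against 21.1% of 26963 other genes of the table. From 250 bases before to 50 after the start, the core CGGAAG, which ETS factors bind, stood on either strand in 41 members (66.1%) and in 18.7% of other genes. The core AAGATGG, known from YY1 sites, stood in 10 members (16.1%) and in 7.3% of other genes. The PLAG1 consensus was matched in 11 members (17.7%) and in 21.2% of other genes. Of the 6 members with an entry that passed the threshold, 2 held the run, 5 the ETS core, 0 the YY1 core and 1 the PLAG1 consensus. CGGAAG and AAGATGG can share bases, as can a run and the reverse complement of CGGAAG, and a match is a description of these letters only.

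Ribosomal protein mRNAs took a slightly smaller share of the RNA in KO epididymis. The 82 genes held 3.129%, 3.327%, 3.044%, 3.179% and 3.136% of the counts in the KO libraries, 3.276%, 3.182%, 3.412%, 3.465% and 3.257% in HET, and 3.377%, 3.24%, 3.519%, 3.628% and 3.287% in WT. The share averaged 3.16% ± 0.10 in KO, 3.32% ± 0.12 in HET and 3.41% ± 0.16 in WT (SD, n = 5 each). The groups overlap, since KO-695 lies above WT-719 and WT-726. Both subunits moved alike: the large subunit held 1.81% to 1.98% of the counts in KO and 1.93% to 2.16% in WT, and the small subunit 1.24% to 1.34% in KO and 1.31% to 1.47% in WT.

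The same downward displacement was seen in the typical member. Relative to its WT mean on the log2 scale, the median member stood at -0.14, -0.08, -0.20, -0.06 and -0.08 in KO-694, KO-695, KO-696, KO-738 and KO-739. It stood at -0.06, -0.02, 0.09, 0.08 and -0.03 in HET-692, HET-693, HET-715, HET-718 and HET-735, and between -0.06 and 0.08 in WT. All KO values lay below all WT values, with a mean of -0.11 ± 0.06 in KO and 0.00 ± 0.06 in WT (SD, n = 5 each). KO-696 had the lowest value, and KO-738, the KO library rich in ribosomal RNA, lay next to WT-709. In the KO libraries, in the same order, 74, 63, 73, 56 and 50 of the 80 members were below their WT mean. The count was 60, 43, 28, 17 and 52 in the HET libraries. In WT-709, WT-719, WT-720, WT-723 and WT-726 it was 52, 58, 22, 17 and 38, so KO and WT overlapped on this count.

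**Figure D1:**
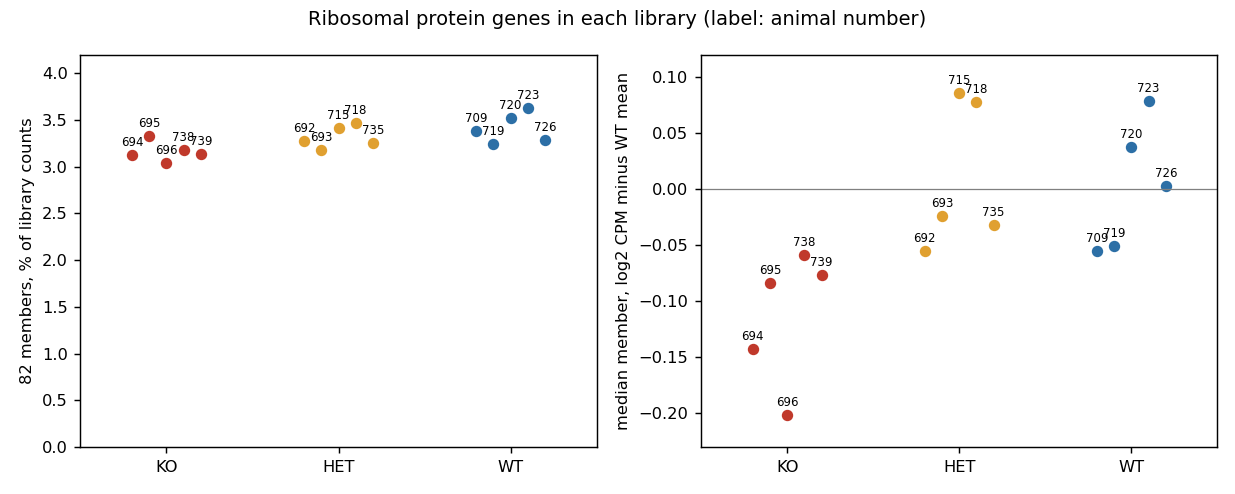
Left, share of each library's counts held by the 82 ribosomal protein genes (%). Right, median over the 80 tested members of log2 CPM minus the member's WT mean; each point is 1 library, labelled by animal number, and KO-694 and KO-696 lie lowest at -0.14 and -0.20.

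In KO against WT, 6 of 80 members fell and 1 rose at an edgeR adjusted p under 0.05. Over all 19388 genes, 1.6% fell and 4.4% rose. The members that fell were Rpl27, Rpl23a, Rpl10 and Rpl35 of the large subunit and Rps13 and Rps2 of the small subunit, and the member that rose was Rpl39l. The other 73 did not pass. The median log2 fold change of the members was -0.13, beside -0.01 for all genes, and 67 of 80 values (83.8%) were negative, beside 53.2% of all genes. At an unadjusted p under 0.05, 28 members (35.0%) were lower and 1 was higher, beside 9.77% of all genes lower. The large subunit had 4 lower and 1 higher of 48 with a median of -0.13, and the small subunit 2 lower of 32 with a median of -0.14. The values apart from Rpl39l ran from -0.55 (Rplp1) to 0.11 (Rpl34).

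Connective and immune markers were mostly higher in KO than in WT. Fibroblast markers, all 7 detected, summed to 1948 to 3464 CPM in KO and 1595 to 1989 CPM in WT, and 6 of 7 rose. The 8 macrophage markers summed to 99.5 to 169 CPM in KO and 80.4 to 99.5 CPM in WT, and the 5 endothelial markers to 127 to 187 CPM in KO and 76.2 to 98.6 CPM in WT. The 4 epithelial markers summed to 1210 to 1590 CPM in KO and 1342 to 1549 CPM in WT. Their part in the ribosomal protein values was not tested.

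**Figure D2:**
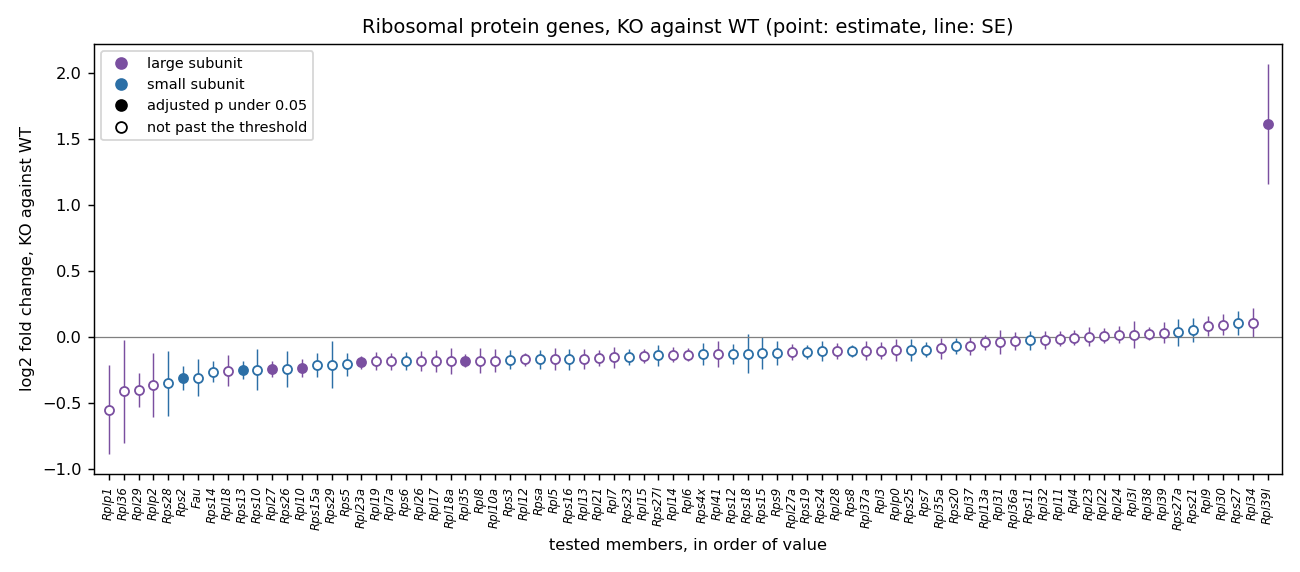
Log2 fold change of the tested members shown, KO against WT, in order of value; lines show the SE of the edgeR fit, filled points passed an adjusted p of 0.05. Most estimates lie between -0.4 and 0, with Rpl39l apart at 1.62.

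Among the large subunit members that fell, Rpl27 and Rpl23a gave the smallest p-values. Rpl27 (Gene ID 19942; chr11:101442245-101445596) is a core protein of the large subunit. It had 171, 179, 175, 176 and 146 CPM in KO, 177, 189, 187, 204 and 176 CPM in HET, and 189, 200, 212, 216 and 188 CPM in WT. All 5 KO libraries lay below all 5 WT libraries, while HET overlapped both. The change in KO against WT was -0.25 ± 0.06 on the log2 scale (SE; edgeR adjusted p = 0.0316).

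Rpl23a (chr11:78180935-78183584) lies beside the exit of the peptide tunnel. It had 446, 438, 408, 447 and 454 CPM in KO, 477, 505, 524, 527 and 524 CPM in HET, and 476, 523, 476, 528 and 501 CPM in WT. Here KO stood below every HET and every WT library, and HET and WT covered the same range. It fell by 0.19 ± 0.05 against WT (adjusted p = 0.0327) and by 0.22 ± 0.05 against HET (adjusted p = 0.0344, both edgeR). Its within-genotype SD of 0.065 on the log2 scale was among the 3 smallest of all members. The gene overlaps Tlcd1 and holds 3 small RNA genes in its introns, and no strand setting is stated for the counting.

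Rpl10 (chrX:74270816-74273135), a late-joining protein near the peptidyl transferase centre, had 689, 633, 673, 688 and 685 CPM in KO, 704, 781, 802, 872 and 833 CPM in HET, and 704, 841, 775, 776 and 876 CPM in WT. Every KO value was below every HET and WT value, though HET-692 and WT-709, at 704 CPM, came close. The change was -0.24 ± 0.07 against WT (edgeR adjusted p = 0.0445) and -0.25 ± 0.07 against HET (adjusted p = 0.0638). Rpl35 (chr2:39001581-39005131), another protein at the tunnel exit, had 268, 279, 260, 299 and 260 CPM in KO, 296, 304, 317, 317 and 294 CPM in HET, and 306, 339, 302, 306 and 295 CPM in WT. KO-738, at 299 CPM, overlapped WT-726. Rpl35 changed by -0.18 ± 0.05 (edgeR adjusted p = 0.0446), and it overlaps Wdr38.

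Of the small subunit, Rps13 (chr7:116331507-116334190), part of a bridge to the large subunit, had 157, 172, 151, 160 and 166 CPM in KO, 159, 181, 181, 162 and 148 CPM in HET, and 210, 174, 203, 202 and 172 CPM in WT. KO lay below WT, narrowly for KO-695 against WT-726, and HET covered the KO range. The change was -0.25 ± 0.07 in KO against WT (edgeR adjusted p = 0.0412), and the estimate in HET against WT was -0.21 ± 0.07 (adjusted p = 0.981). Rps13 has 4 pseudogene entries that together carry 32.8% of its own level, and it overlaps Gm10589. Rps2 (chr17:24718121-24721927), which lines the mRNA entry channel, had 166, 175, 147, 155 and 136 CPM in KO, 168, 167, 161, 201 and 192 CPM in HET, and 194, 178, 194, 231 and 171 CPM in WT. KO-695 overlapped WT-726, and the change was -0.31 ± 0.09 (edgeR adjusted p = 0.0484). Rps2 overlaps Snhg9 and holds 2 small RNA genes.

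These calls rest close to the threshold. When 1 of the 15 libraries was left out, 0 to 3 members passed as lower in 14 of 15 cases, and 9 passed without KO-738. No member passed as lower without WT-723, KO-694 or KO-696, where 105, 142 and 60 of all genes did, against 310 with all libraries and 1018 without KO-738. With the animal number range as a term, 0 members and 19 of all genes passed as lower, and the members' median was -0.08. With that term Rpl27 stood at -0.27, Rpl10 at -0.17, Rpl23a at -0.14 and Rpl35 at -0.15. Across the animals numbered 700 and above, which leave 2 KO against 5 WT libraries, 0 of all 19801 genes passed in either direction. There the members' median was -0.07, and Rpl27 stood at -0.32, Rpl10 at -0.21, Rpl23a at -0.15 and Rpl35 at -0.15.

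**Figure D3:**
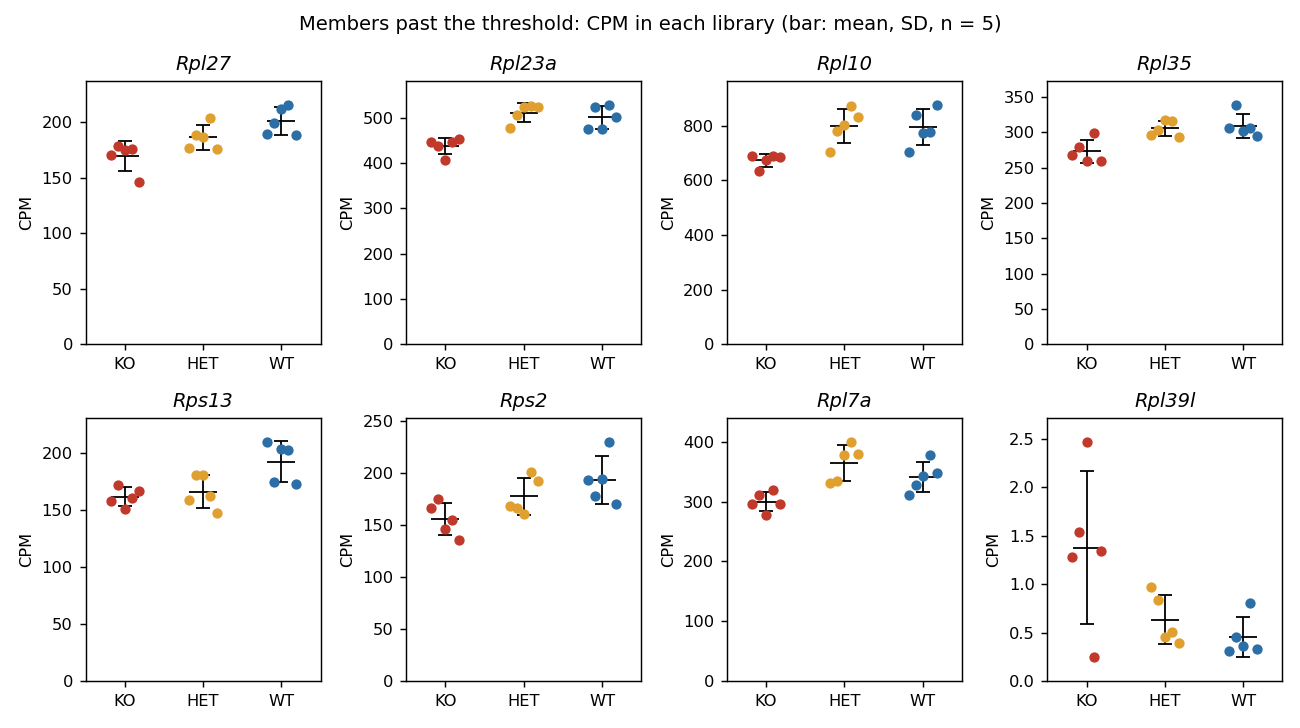
CPM of the 8 members past the threshold in KO against WT or KO against HET, each point 1 library, with the mean and SD of the 5 libraries. For Rpl23a and Rpl10 all KO points lie below all HET and WT points; for Rpl39l KO-738 lies at 0.251 CPM and the other KO libraries at 1.28 to 2.47 CPM.

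KO against HET shares the KO libraries with the comparison above. In it 2 members fell, Rpl23a and Rpl7a, and 0 rose (edgeR), beside 0.351% of all genes lower and 1.61% higher. The median of the members was -0.11, with 66 of 80 values negative. At an unadjusted p under 0.05, 28 members (35.0%) were lower, beside 9.2% of all genes. Rpl7a (chr2:26910685-26913312), a large subunit protein that contacts ribosomal RNA, had 295, 311, 277, 319 and 296 CPM in KO, 332, 335, 378, 400 and 379 CPM in HET, and 311, 327, 342, 377 and 347 CPM in WT. KO lay below HET throughout and overlapped WT at 311 and 319 CPM. The change was -0.28 ± 0.06 against HET (adjusted p = 0.0352) and -0.19 ± 0.06 against WT (adjusted p = 0.0911). Rpl26, of the large subunit, had the next smallest p-value, at -0.29 ± 0.08 (adjusted p = 0.061), and Rps6 stood at -0.25 ± 0.07 (adjusted p = 0.0699) against HET.

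With 1 Plag1 allele the ribosomal protein genes gave no call. In HET against WT edgeR called 0 of 80 members, beside 0.0% of all genes, and DESeq2 and limma voom also called 0 members. At an unadjusted p under 0.05, 1 member was higher and 2 were lower, beside 428 and 426 of all genes. The median was 0.02, with 36 of 80 values negative. The 3 smallest p-values among lower estimates belonged to Rps13, Rplp2 (-0.57 ± 0.25) and Rps10 (-0.33 ± 0.16), with adjusted p = 0.981 for each. Among the higher estimates, Rpl30 (0.19 ± 0.08) and Rpl38 (0.10 ± 0.05) had the smallest p-values shown here, also with adjusted p = 0.981 in edgeR.

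The member that rose is a copy known from the male germ line. Rpl39l (chr16:10170197-10174911) is a copy of Rpl39 that replaces it in the ribosomes of spermatocytes and spermatids. It had 1.28, 1.54, 2.47, 0.251 and 1.34 CPM in KO, 0.971, 0.833, 0.459, 0.51 and 0.387 CPM in HET, and 0.308, 0.452, 0.358, 0.805 and 0.326 CPM in WT. In reads these were 33, 55, 107, 8 and 45 counts in KO, against 8, 9, 10, 22 and 8 in WT. In KO, 4 libraries lay above every WT library and KO-738 lay below all of them. The change was 1.62 ± 0.46 (edgeR adjusted p = 0.0493), and it passed in 1 of 15 fits with a library left out.

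Markers of germ cells and sperm also differed between the KO libraries. The 20 markers, all detected in each genotype, summed to 290, 294, 427, 130 and 186 CPM in KO, 259, 187, 176, 171 and 170 CPM in HET, and 155, 151, 126, 210 and 178 CPM in WT. KO-696 had the most of both, and KO-738 had the least Rpl39l and fewer of these markers than every library but WT-720. Of these markers 5 rose in KO against WT and 0 fell, with a median of 0.99, and their part in the Rpl39l value was not tested. Rpl10l, a germ line copy of Rpl10, was under the minimum for testing, with 8, 18, 55, 5 and 16 counts in KO, 14, 4, 6, 4 and 0 in HET, and 7, 3, 0, 4 and 3 in WT. It too was highest in KO-696. Rpl32l had 2 to 7 counts in every library.

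Of the ordinary counterparts of the copies, Rpl10 fell, as given above, and Rpl39, Rpl3, Rps27 and Rps4x did not pass. Rpl39 had 261, 250, 276, 306 and 340 CPM in KO and 255, 282, 273, 285 and 309 CPM in WT (0.03 ± 0.08, edgeR adjusted p = 0.856). Rpl39 and Rpl39l are close copies, and how reads that match both were counted is not stated. Rpl3l, the form of skeletal muscle and heart, had 30.1, 30.4, 30.7, 31.4 and 40.4 CPM in KO, 32.6, 30.3, 32.2, 31.7 and 31.7 CPM in HET, and 37.1, 29.4, 38.8, 27.9 and 27.9 CPM in WT. KO-739 was the highest library, and its 8 skeletal muscle markers summed to 4296 CPM, against 24.4 to 89.9 CPM in the other 14. In WT-709 and WT-720, Rpl3l stood at 37.1 and 38.8 CPM with muscle markers at 54.0 and 76.6 CPM. The part of the muscle markers in the Rpl3l values was not tested. Rpl3 itself gave -0.10 ± 0.06 (adjusted p = 0.339). It has 2 pseudogene entries that together carry 37.0% of its own level. Of these, Rpl3-ps1 fell in KO against WT (-0.36 ± 0.10, edgeR adjusted p = 0.0448), and Rpl3-ps2 is given below. Rps27l, a copy of Rps27 known as a p53 target, gave -0.14 ± 0.08 (adjusted p = 0.301), and Rps27 0.11 ± 0.09 (adjusted p = 0.517). Rps4x, the X-linked form, gave -0.13 ± 0.08 (adjusted p = 0.375).

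The acidic stalk, which recruits the elongation factors, varied far more between libraries than between genotypes. Rplp1 had 491, 768, 482, 382 and 194 CPM in KO, 532, 342, 290, 462 and 438 CPM in HET, and 908, 507, 783, 887 and 311 CPM in WT. Rplp2 had 218, 298, 211, 172 and 120 CPM in KO, 217, 163, 137, 195 and 176 CPM in HET, and 347, 238, 284, 309 and 138 CPM in WT. Their base, Rplp0, stayed between 452 and 633 CPM in KO, between 520 and 608 CPM in HET and between 510 and 641 CPM in WT. The spans from lowest to highest library were 4.69-fold for Rplp1, 2.88-fold for Rplp2 and 1.42-fold for Rplp0. The ratio of Rplp1 to Rplp0 CPM therefore ran from 0.429 to 1.21 in KO, 0.557 to 0.876 in HET and 0.609 to 1.48 in WT. Rplp1 at -0.55 ± 0.34 and Rplp2 at -0.37 ± 0.24 did not pass in KO against WT (adjusted p = 0.358 and 0.4).

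Rpl36, a large subunit protein outside the stalk, was wider still. It had 108, 161, 105, 70.4 and 34.1 CPM in KO, 106, 62.8, 46.7, 79.5 and 74.1 CPM in HET, and 176, 95.5, 146, 166 and 53.7 CPM in WT, a 5.17-fold span. The lowest library was KO-739 and the highest WT-709, with WT-726 also low. It did not pass in KO against WT (-0.41 ± 0.39, adjusted p = 0.574).

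These swings ran with a difference between libraries in the levels of genes with GC-rich and GC-poor coding sequences. What produced that difference was not tested. For each library the mean log2 deviation of 829 genes with at least 59.5% GC in the coding sequence was set against that of 830 genes with at most 44.2%, ribosomal protein genes left out. This difference was 0.04, 0.36, 0.07, -0.004 and -0.36 in KO-694, KO-695, KO-696, KO-738 and KO-739, 0.18, -0.19, -0.21, -0.04 and -0.14 in the HET libraries, and 0.28, -0.12, 0.22, 0.21 and -0.30 in the WT libraries in the order given above. High and low libraries occurred in each genotype. Over the 15 libraries it correlated with log2 CPM of Rpl36 (r = 0.94, rho = 0.943) and of Rplp1 (r = 0.918, rho = 0.918), each with permutation p = 1e-05, the smallest that 100000 resamples allow, and adjusted p = 1.5e-05 over 3 relations. Without KO-695 and KO-739, the libraries farthest from the median difference, r was 0.921 for Rpl36 and 0.898 for Rplp1. For Rpl39l r was 0.152 (rho = 0.079, permutation p = 0.585 and 0.782). With 5 libraries a genotype, no r is given within genotypes.

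**Figure D4:**
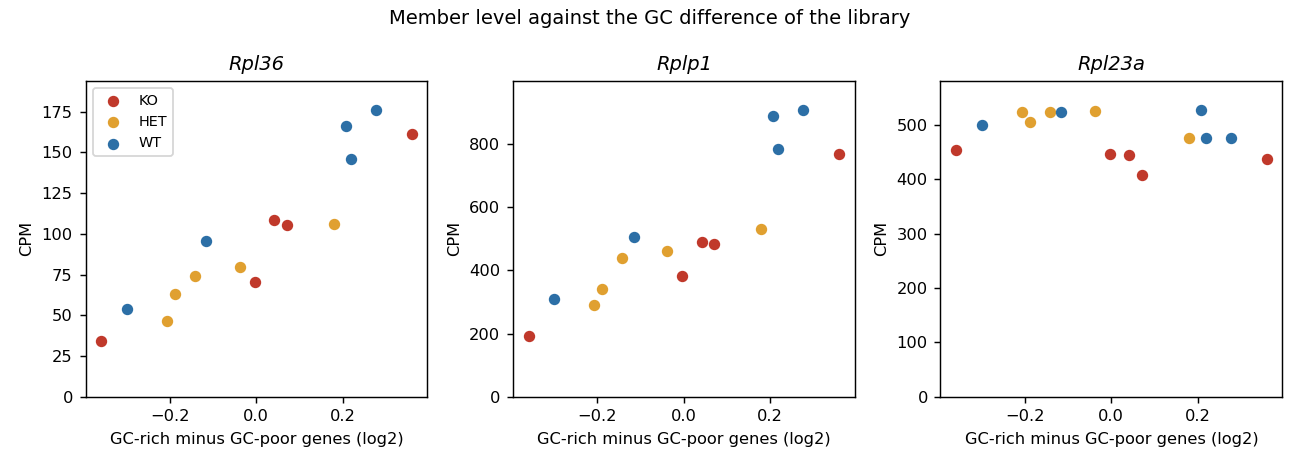
CPM of Rpl36, Rplp1 and Rpl23a in each library against the library's GC difference (mean log2 deviation of GC-rich minus GC-poor genes, members left out); colours give the genotype. Rpl36 and Rplp1 are higher in libraries farther right, while for Rpl23a KO libraries lie below the others at any GC difference.

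The members split along the same line. The slope of log2 CPM on the GC difference was taken over the 15 libraries with the mean of each genotype removed from both. It was positive for 37 members and negative for 43. The 6 largest slopes belonged to Rpl36 (2.91), Rplp1 (2.57), Rplp2 (1.83), Rps29 (1.34), Fau (1.04) and Rps26 (1.02), and the most negative to Rpl9 (-0.52), Rps15a (-0.51) and Rpl7 (-0.50). The 10 members with the largest slopes had a median coding GC of 58.6%, and the 10 with the smallest 47.6%, beside 52.8% over all 80. Over the 80 members, slope and coding GC had a Spearman correlation of 0.815, a description of genes that share the same 15 libraries. Rpl39l, at 43.1% GC the poorest member, was an exception with a slope of 0.73. The first component of the within-genotype variation of the members carried 57.6% of their variance.

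**Figure D5:**
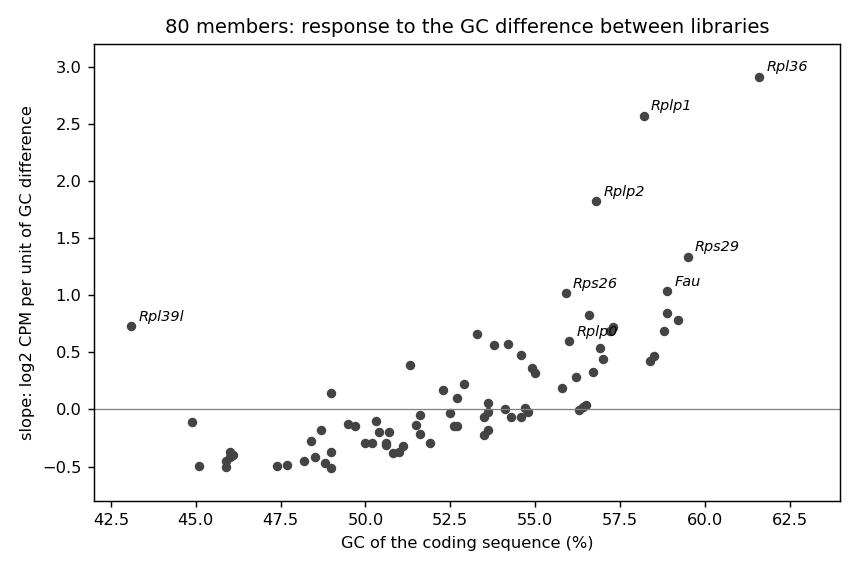
Each point is 1 of the 80 tested members. The x axis gives the GC of the coding sequence (%). The y axis gives the slope of its log2 CPM on the GC difference of the library, with genotype means removed from both. Slopes lie near or below 0 under 50% GC, Rpl39l excepted, and reach 2.91 for Rpl36.

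With the GC difference as a term in the edgeR fit, a term chosen after seeing the data, 25 members fell in KO against WT and Rpl39l rose. In that fit 6.48% of all genes fell and 7.41% rose. Each of the 6 members that had fallen without the term passed again. The median was -0.14, against -0.13 without it. Members that passed with the term only included some of the wide ones: Rplp1 at -0.49 ± 0.09 (adjusted p = 0.00709), Fau at -0.27 ± 0.05 (adjusted p = 0.0045), Rplp2 at -0.30 ± 0.08 (adjusted p = 0.0273) and Rps29 at -0.18 ± 0.05 (adjusted p = 0.0424). Rpl36 at -0.35 ± 0.12 (adjusted p = 0.0639) and Rps28 at -0.35 ± 0.26 (adjusted p = 0.396) did not pass with it. In KO against HET 7 members fell and 0 rose with the term, beside 1.21% of all genes lower and 2.54% higher.

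The members named here for roles outside the ribosome were not among the calls of the fit without the GC difference. Rpl5 and Rpl11, which with 5S RNA bind Mdm2, gave -0.17 ± 0.08 and -0.01 ± 0.06 in KO against WT (edgeR adjusted p = 0.236 and 0.915). Rps6, the substrate of the S6 kinases, had 467, 473, 439, 519 and 521 CPM in KO, 523, 538, 599, 622 and 587 CPM in HET, and 494, 602, 521, 557 and 578 CPM in WT. All KO libraries were below all HET libraries and overlapped WT (-0.19 ± 0.07 against WT, adjusted p = 0.112). Rpsa, also known as a laminin receptor, gave -0.17 ± 0.07 (adjusted p = 0.164), and Rps19, mutated in Diamond-Blackfan anaemia in humans, -0.11 ± 0.05 (adjusted p = 0.191). Of the members made as fusions, Rps27a with ubiquitin gave 0.03 ± 0.10 (adjusted p = 0.882) and Fau with a ubiquitin-like protein -0.31 ± 0.14 (adjusted p = 0.192). With the GC difference as a term in edgeR, Rps6 passed in KO against WT (-0.20 ± 0.06, adjusted p = 0.0328). It also passed against HET (-0.22 ± 0.06, adjusted p = 0.0468). Fau passed with the term against WT only, as given above, and the others named here in neither comparison.

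Rps20 is the member nearest to the altered locus and was picked for its position, outside the rule for named genes. It lies on chr4:3831584-3835655, 63114 bases from Plag1 with 1 gene between. It had 323, 334, 319, 347 and 340 CPM in KO, 346, 345, 362, 346 and 294 CPM in HET, and 354, 320, 370, 376 and 323 CPM in WT. The 3 genotypes overlapped, and the change in KO against WT was -0.07 ± 0.06 (edgeR adjusted p = 0.542).

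Levels of the members, per coding length, spanned a wide range. The median was 769 CPM per kb of coding sequence, with quartiles of 611 and 1095, over 80 members. Rpl41, whose peptide is tiny, stood at 11552 CPM per kb, Rps29 at 2333 and Rpl26 at 1914. The lowest tested were Rpl39l at 5.36, Rpl10a at 24.0 and Rpl3l at 26.4 CPM per kb. Coding length understates the full transcript of very short genes such as Rpl41, so its value per kb is high in part by construction.

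Some low levels go with reads counted on copies. Rpl10a, Rps10, Rps18 and Rpl34 had pseudogene entries whose summed CPM was 657%, 603%, 444% and 345% of their own. Rpl10a, Rps10 and Rps18 lie on chromosome 17, and the counts of these members and their copies are uncertain. Of 204 pseudogene entries 88 were tested, of which 5 fell and 2 rose in KO against WT with a median of -0.13. They included Rpl3-ps2 (-0.41 ± 0.08, edgeR adjusted p = 0.008), Rpl34-ps1 (-0.39 ± 0.09, adjusted p = 0.0179) and Rps18-ps5 (-0.48 ± 0.11, adjusted p = 0.027). Rpl34-ps1 averaged 130 ± 8.31 CPM in KO and 171 ± 24.5 CPM in WT, while Rpl34 itself had 41.1 to 54.5 CPM in KO and 38.2 to 49.2 CPM in WT (0.11 ± 0.11, adjusted p = 0.608).

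Genes that work with the ribosomal proteins had medians nearer to 0 than the members in KO against WT. There, of 26 translation factors and other mRNAs known for an oligopyrimidine start, 1 rose and 0 fell with a median of -0.04. The one that rose was Vim, an intermediate filament gene of mesenchymal cells (0.55 ± 0.13, adjusted p = 0.0274). None of 54 ribosome biogenesis factors passed (median 0.01; 2 higher and 2 lower at an unadjusted p under 0.05). Nor did any of 38 regulators of ribosomal protein synthesis (median -0.01; 2 higher and 3 lower). Of 78 mitochondrial ribosomal protein genes 1 fell, Mrps18b, with 0.548 ± 0.103 CPM in KO and 1.81 ± 1.73 CPM in WT (adjusted p = 0.0448), and the median was -0.03. In KO against HET, the oligopyrimidine list had a median of -0.09 with 25 of 26 values negative (96.2%), 1 higher (Vim) and 0 lower, beside the members' median of -0.11 with 82.5% negative and 52.5% of all genes negative. At an unadjusted p under 0.05, 7 of the 26 (26.9%) were lower, beside 9.2% of all genes. The biogenesis, regulator and mitochondrial lists had medians of -0.02, -0.03 and -0.03 there, with 0 genes past the threshold (edgeR; 0 higher and 2 lower, 1 higher and 2 lower, and 1 higher and 8 lower at an unadjusted p under 0.05).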

How the data were processed

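The deposited values are raw read counts per NCBI Gene ID, made by the authors with HISAT2 2.0.5 and featureCounts of Subread 1.4.6p5 on GRCm38.p6, per the submitters' processing notes. The annotation release and strand setting are not given in the sources used here. The labels give stranded mRNA libraries of 1 animal each and no batch. Of 41591 IDs 96.9% were named through a RefSeq table of GRCm38.p6. Coding length and GC come from GENCODE M21 transcripts.

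Counts were tested with edgeR 4.0.16 (TMM, filterByExpr, robust quasi-likelihood) in R 4.3.3, in 1 fit of 15 libraries with a mean per genotype. P-values are two-sided, Benjamini-Hochberg adjusted over 19388 genes at 0.05. CPM uses TMM library sizes. Errors of fold changes are SE, and the biological coefficient of variation was 16.3%. The test was tested on simulated data, with genes drawn independently. The planted changes were larger than the KO against WT estimate of every member but Rpl39l. That run does not show how the test performs on changes of the members' size. Depth of 20.3 to 42 M counts leaves little counting noise for most members. It leaves more for Rpl39l, Rpl10l and Rpl32l. Rps28, Rps10, Rpl29, Rpl10a and Rps18 also had few counts, with 190, 257, 273, 276 and 401 in their lowest libraries. Where labels name no litter, p-values measure the spread between these animals only.

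Alternatives were other scaling factors, other filters, DESeq2 1.42.0, limma 3.58.1 voom with quality weights, 2 genotypes alone, the animal number range, leaving out the libraries with over 1% ribosomal RNA, leaving out each library and, added after seeing the data, the GC difference as a term. The genes named are all members past the threshold, those with the smallest p-values each way, the copies and their counterparts, members with known other roles, the extremes of level and spread, and the called genes of related lists. Members and lists were chosen with earlier results of these data known. Python 3.11.15 with pandas 2.3.3 and matplotlib 3.10.9 made tables and plots. Some genes are not reported here.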

Additional observations from a re-analysis of the deposited data

Results flagged for a closer look

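In 117 groups of 5 libraries, 39 named members in 3 genotypes, 7 held a library set apart from the other 4 by more of the group's range than Dixon's critical value of 0.71 allows. Chance alone flags about 1 in 20 groups. KO-739 was set apart in 3 of them. It had 146 CPM of Rpl27, below the 171 to 179 CPM of the other KO libraries, and 190 CPM of Rps21, a small subunit protein, below 210 to 217 CPM. In Rpl3l the same library stood at 40.4 CPM, above 30.1 to 31.4 CPM. KO-695 had 633 CPM of Rpl10, below 673 to 689 CPM. KO-738 had 339 CPM of Rps19, above 305 to 313 CPM in the other KO libraries. HET-692 had 863 CPM of Rps4x, below 1018 to 1081 CPM. WT-719 had 339 CPM of Rpl35, above 295 to 306 CPM.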

How the results depend on the processing

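In KO against WT, with 6 members lower and 1 higher, the lower count was 1 with upper-quartile factors, 3 with no filter on low counts, 10 with DESeq2, 25 with the GC difference as a term, and 0 with the 2 genotypes alone, with the animal number range as a term and in animals numbered 700 and above. The higher count was 0 in those last 3, with no filter, with at least 1 CPM in 5 libraries and with limma voom. It was 2 without libraries over 1% ribosomal RNA, where 1795 of all genes were higher, against 853 in the main fit. Leaving out 1 library gave 0 to 9 lower and 0 to 2 higher, beside 60 to 1018 lower and 258 to 1905 higher of all genes. The median was -0.0698 in animals numbered 700 and above, and -0.16 to -0.07 over all alternatives. In KO against HET, with 2 lower and 0 higher, the lower count was 8 with DESeq2, 23 with limma voom, 7 with the GC difference, 8 (and 1 higher) without libraries over 1% ribosomal RNA, and 0 with the 2 genotypes alone and in animals numbered 700 and above. Leaving out 1 library gave 0 to 13 lower and 0 to 1 higher, beside 0 to 897 lower and 0 to 1546 higher of all genes. In HET against WT all these settings gave 0 members. Counts over all genes moved too: 310 genes were lower in KO against WT, and 253 with upper-quartile factors, 175 with no filter, 617 with DESeq2, 1256 with the GC difference and 41 with the 2 genotypes alone. In KO against HET 68 were lower, and 365 with DESeq2, 842 with limma voom, 235 with the GC difference, 647 without libraries over 1% ribosomal RNA and 0 with the 2 genotypes alone. The cause of these shifts was not tested. Upper-quartile factors moved the median of all genes to 0.02 from -0.01. Rpl39l at 8 to 107 counts is limited by depth, and was not tested under the stricter filter. No paired analysis was possible because the groups share no replicate number. Over all alternatives run, the 6 lower members stayed negative and Rpl39l positive.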
